A study of Mus musculus with 6 samples.

Results

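The 9 transcription factors that set and keep β-cell identity, *Pdx1*, *Mafa*, *Nkx6-1*, *Nkx2-2*, *Neurod1*, *Pax6*, *Isl1*, *Rfx6* and *Foxa2*, were examined in RNA-seq of mouse islets. They were chosen by gene name, and each matched 1 row of the 55060 genes listed. All 9 passed the filter on low values, a mean FPKM of at least 0.1, which left 21211 genes to test. FPKM is a fragment count divided by gene length and by library size. There were 3 islet samples in the Ctrl group and 3 in the cKO group, both at 12 weeks of age. The cKO mice were *Ins2-cre; Parn f/f*: Cre recombinase under the *Ins2* promoter deletes a floxed exon of *Parn*, a deadenylase that shortens the poly(A) tails of mRNAs, in β cells. The Ctrl group was *Parn f/f* mice together with other littermates, and the labels do not say which Ctrl sample had which genotype or whether any carried Cre. Each sample was RNA of whole isolated islets, in which α, δ and other cells keep *Parn*. In such a bulk sample, fewer β cells and less RNA per β cell cannot be told apart. The comparison addresses whether the RNA of these factors differed between Ctrl and cKO islets.

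β cells acquire their identity through a cascade of transcription factors and keep it only while several of them stay active. PDX1, the NKX homeodomain proteins, PAX6 and ISL1 bind DNA through homeodomains, NEUROD1 through a basic helix-loop-helix, MAFA through a basic leucine zipper, FOXA2 through a forkhead domain and RFX6 through the winged helix of the RFX family. Together they occupy enhancers of the insulin genes and of genes for glucose sensing and granule release, and most of them also bind near one another's genes. MAFA marks mature β cells, whereas PAX6, ISL1, NEUROD1, NKX2-2, FOXA2 and RFX6 are also made in other islet endocrine cells.

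Reads on genes, read back from FPKM, numbered 16289408 to 17944775 per library, and 1298 to 21494 of them lay behind the value of any of the 9 genes in any sample. The library sizes read back from FPKM, 15731223 to 18085944, were below the reads on genes in every Ctrl sample. They are therefore the divisors used in FPKM and not totals of reads. *Parn* itself had 6.64, 8.34 and 7.38 FPKM in Ctrl islets, against 4.97, 4.61 and 6.15 in cKO islets (replicates 1, 2 and 3 in this order throughout), so the cKO samples were the lower ones and the groups did not overlap. Its log2 fold change, cKO minus Ctrl, was -0.44 (adjusted p = 0.545 by limma), and 6.03% of all genes had every cKO sample below every Ctrl sample. Ctrl replicate 1 stood apart from the other 5 samples on the first principal component, at -52.4 against -2.91 to 26.6, a component that held 34.7% of the variance. The summed FPKM of 8 immune cell markers was 1026 there against 181 to 315 elsewhere, with 8 of 8 markers highest in that sample, and the sum of 5 markers of dividing cells was 12.7 against 1.92 to 3.61. The summed FPKM of 8 β-cell markers, which include the insulin genes, was 235514 to 275934 in Ctrl and 195032 to 217195 in cKO. *Ins2* made up most of that sum. The mean of log2(FPKM + 1) over the 8 markers overlapped between the groups, at 10.74 to 11.22 in Ctrl and 10.75 to 10.89 in cKO. *Xist* and Y-linked RNA were both above 1 FPKM in 3 libraries, Ctrl replicates 1 and 2 and cKO replicate 1. The 8 acinar markers summed to 7183 to 19673 in Ctrl and 8924 to 32392 in cKO. The 8 stromal markers summed to 46.0 and 43.4 in cKO replicates 2 and 3, against 11.8 to 20.4 in the other 4 samples, and the 7 endothelial markers to 110 to 125 in Ctrl and 132 to 166 in cKO, without overlap of the sums. The mean of log2(FPKM + 1) over the 7 endothelial markers overlapped, at 3.616 to 3.682 in Ctrl and 3.677 to 3.973 in cKO. The part of these differences in the results that follow was not tested, except where values without Ctrl replicate 1 are given.

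In the coordinates of GRCm38 that accompany the values, *Pdx1* spans 147269959 to 147275848 of chromosome 5 with 2 exons, and *Nkx6-1* spans 101658139 to 101664996 of the same chromosome with 3. Chromosome 2 carries 4 of the 9 genes. These are *Neurod1* at 79452521 to 79456751, *Pax6* at 105668900 to 105697364, *Nkx2-2* at 147177546 to 147194243 and *Foxa2* at 148042877 to 148046969. *Mafa*, which has 1 exon, lies on chromosome 15 from 75745490 to 75748228, *Isl1* on chromosome 13 from 116298281 to 116309689 and *Rfx6* on chromosome 10 from 51677756 to 51730432. *Rfx6*, with 19 exons, and *Pax6*, with 13, have the most exons of the 9, and the remaining genes have between 1 and 6 exons. The coding sequences predict proteins of 273 residues for NKX2-2 to 927 for RFX6.

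Promoter windows, the 250 bases before an annotated start, were available from RefSeq (GRCm38.p6) for 8 of the 9 genes, in 11 windows; *Mafa* had none. The 3 shown belong to the genes whose first window held none of their own exon bases, and include *Pax6* and *Rfx6*, whose fold changes were among the 3 lowest of the 9. They are read 5′ to 3′ on the strand of the gene. Capitals mark matches, on either strand, to 6 short motifs, and here the only match is the RFX half-site in *Pax6*.
*Pax6* (chr2:105668646-105668895, + strand): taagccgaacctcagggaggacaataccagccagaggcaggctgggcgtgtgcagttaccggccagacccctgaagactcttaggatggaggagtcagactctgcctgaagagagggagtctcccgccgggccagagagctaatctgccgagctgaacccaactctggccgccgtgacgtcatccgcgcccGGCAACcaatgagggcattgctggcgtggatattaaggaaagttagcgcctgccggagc
*Rfx6* (chr10:51685268-51685517, + strand): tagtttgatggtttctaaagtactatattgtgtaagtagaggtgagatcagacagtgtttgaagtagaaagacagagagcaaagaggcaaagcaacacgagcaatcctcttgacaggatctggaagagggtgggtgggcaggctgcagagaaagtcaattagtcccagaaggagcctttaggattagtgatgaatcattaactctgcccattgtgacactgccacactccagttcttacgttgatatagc
*Foxa2* (chr2:148046970-148047219, − strand): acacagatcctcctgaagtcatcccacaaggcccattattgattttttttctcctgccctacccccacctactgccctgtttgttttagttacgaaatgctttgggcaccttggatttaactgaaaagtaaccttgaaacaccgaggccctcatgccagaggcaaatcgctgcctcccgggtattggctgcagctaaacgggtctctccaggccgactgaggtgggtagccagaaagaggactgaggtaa
The *Rfx6* window lies in an intron of the listed gene, before a start that RefSeq places downstream of the first base listed here. The letters searched were CANNTG, the E-box of factors such as NEUROD1, TAATTA for homeodomains, TGTTTAC for FOXA, TGCTGA for the MAF half-site, GTTGCC for the RFX half-site and TATAAA for the TATA box. An E-box stood in 6 of the 11 windows, 1 each of *Foxa2*, *Isl1*, *Neurod1*, *Nkx2-2*, *Pax6* and *Pdx1*, and in 66.2% of the 32851 promoter windows of all genes. The MAF half-site was present in 3 of the 11 windows, 1 each of *Foxa2*, *Neurod1* and *Nkx6-1*, and in 16.1% of all windows. The RFX half-site was found in 1 of the 11 windows, of *Pax6* (10.4% of all windows). The TATA box was found in 1 of the 11, a *Foxa2* window other than that shown (12.4% of all windows). TAATTA and TGTTTAC, held by 4.84% and 3.17% of all windows, were in none of the 11. The motifs are letter matches only, and their absence says nothing of binding elsewhere.

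The levels of the 9 factors differed widely within the islet. Averaged over the 6 samples, *Mafa* had an FPKM of 376, *Nkx6-1* 130.4, *Pdx1* 76.0, *Neurod1* 59.9, *Nkx2-2* 42.1, *Foxa2* 41.3, *Isl1* 33.7, *Rfx6* 25.1 and *Pax6* 23.7. *Mafa* was the most abundant of the 1479 genes that the table assigns to a transcription factor family, *Nkx6-1* ranked 4, *Pdx1* 12 and *Neurod1* 15, and *Pax6*, the lowest of the 9, ranked 42. FPKM corrects for gene length, and the length used is that of all exons of a gene together. For *Pax6* this was 11694 bases over 26 transcripts, against a median of 2875 bases for the 9 genes, so its last place rests on that length. Its 3893 to 5728 reads per sample were more than those of *Pdx1*, 2114 to 3078. Only the 2 highest steps were free of overlap: the lowest *Mafa* value, 273, was above the highest *Nkx6-1* value, 162, and the lowest *Nkx6-1* value, 115, was above the highest *Pdx1* value, 85.7. *Pdx1* exceeded *Neurod1*, and *Neurod1* exceeded *Nkx2-2*, in 6 of 6 samples although their ranges overlapped. *Nkx2-2* and *Foxa2* could not be ordered, since each was the higher in 3 of 6 samples. *Rfx6* was above *Pax6* in 4 of 6 samples and below *Isl1* in 5 of 6.

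**Figure D1:**
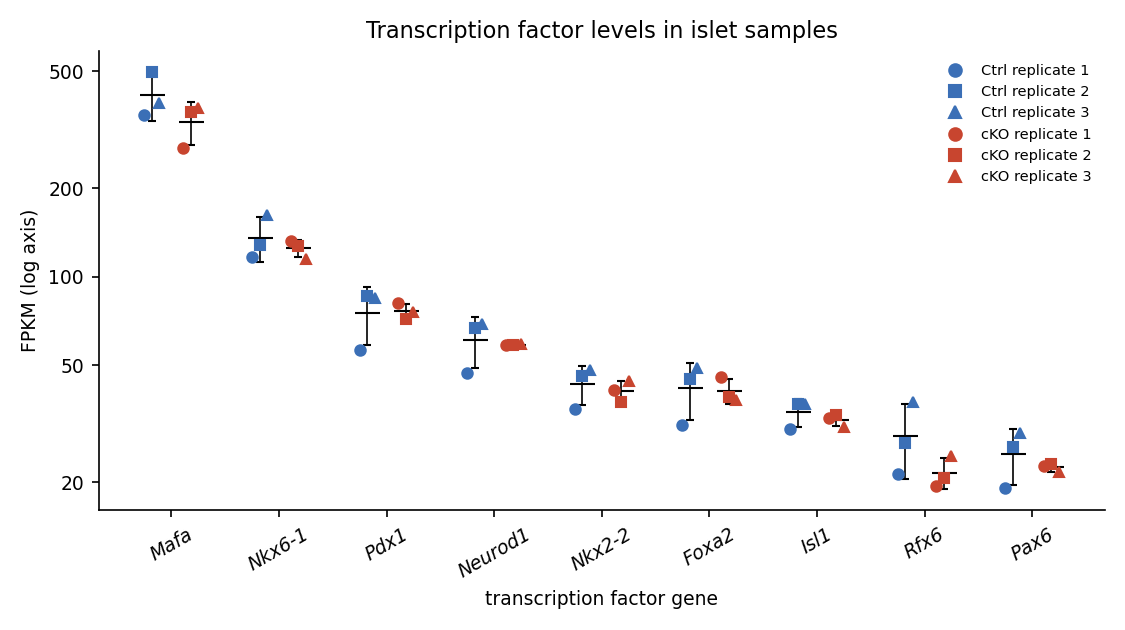
FPKM, on a log axis, of the 9 transcription factor genes in each of the 3 Ctrl (blue) and 3 cKO (red) islet samples, with a marker for each replicate. Horizontal bars are group means and error bars the SD. The groups overlap for each gene, and Ctrl replicate 1 is the lowest Ctrl sample in 9 of 9 genes.

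None of the 9 factors passed the test between Ctrl and cKO islets by limma, at either an adjusted or an unadjusted p under 0.05. At the unadjusted threshold, 3.07% of all genes tested were lower and 4.33% higher in cKO islets, and at the adjusted threshold 0 of 21211 genes were called, the smallest adjusted p being 0.274. The log2 fold change, cKO minus Ctrl on the log2(FPKM + 1) scale, was below 0 for 8 of the 9 genes, against 53.5% of all genes. Its median over the 9 was -0.08, against -0.01 over all genes and -0.03 over the 1049 transcription factor genes tested. No factor had every cKO sample below every Ctrl sample, which held for 6.03% of all genes, and none had every cKO sample above, which held for 7.11%.

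*Mafa*, the maturity factor that activates insulin transcription, had 355, 499 and 391 FPKM in Ctrl islets, against 273, 363 and 376 in cKO islets. Ctrl replicate 2 was the highest and cKO replicate 1 the lowest, and 2 of the cKO samples lay between the 2 lower Ctrl samples. Ctrl averaged 415 ± 74.9 and cKO 337 ± 55.8 (SD, n = 3 each). The log2 fold change was -0.30 (95% confidence interval -0.76 to 0.16, adjusted p = 0.809 by limma).

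*Rfx6*, which directs endocrine differentiation upstream of several islet factors and is needed in adult β cells, had 21.4, 27.3 and 37.4 FPKM in Ctrl islets, against 19.4, 20.7 and 24.5 in cKO islets. The cKO samples lay below Ctrl replicates 2 and 3, and 2 of them lay below Ctrl replicate 1 as well. The means were 28.7 ± 8.11 and 21.5 ± 2.62 (SD, n = 3 each), and the log2 fold change of -0.37 was the lowest of the 9 (95% confidence interval -0.86 to 0.12, adjusted p = 0.759 by limma). *Rfx6* is also one of the genes that the study itself picked from these samples.

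*Pdx1*, needed both to form the pancreas and to run the *Ins* genes in the adult, had 56.1, 85.7 and 84.8 FPKM in Ctrl islets, against 81.2, 72.1 and 76.0 in cKO islets. The cKO values lay between the low Ctrl replicate 1 and the other two Ctrl samples. The log2 fold change was 0.04 (95% confidence interval -0.38 to 0.46, adjusted p = 0.976 by limma), the single value above 0 among the 9.

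*Nkx6-1*, which represses α-cell genes in β cells, had 117, 128 and 162 FPKM in Ctrl islets, against 132, 128 and 115 in cKO islets. The groups were interleaved, and the highest value was Ctrl replicate 3. *Nkx2-2*, a homeodomain factor that keeps other islet fates repressed in β cells, had 35.6, 45.9 and 48.1 in Ctrl, against 41.2, 37.4 and 44.1 in cKO. All 3 cKO samples of *Nkx2-2* lay between Ctrl replicate 1 and Ctrl replicate 2. The log2 fold changes were -0.11 (95% confidence interval -0.45 to 0.24) and -0.07 (-0.39 to 0.25), with adjusted p of 0.896 and 0.933 by limma.

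*Neurod1*, the helix-loop-helix activator of insulin, had 46.9, 66.9 and 69.0 FPKM in Ctrl islets, against 58.7, 58.7 and 59.1 in cKO islets. The coefficient of variation in cKO was thus 0.383%, against 3.17% (*Pax6*) to 16.5% (*Mafa*) for the other factors in cKO. In Ctrl it was 10.9% to 28.3% for the 9 factors. The 3 cKO samples lay in the gap between Ctrl replicate 1 and the other Ctrl samples. The log2 fold change was -0.03 (95% confidence interval -0.40 to 0.34, adjusted p = 0.979 by limma).

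*Pax6*, a paired-box factor of all islet endocrine cells, had 19.1, 26.4 and 29.4 FPKM in Ctrl islets, against 22.7, 23.0 and 21.6 in cKO islets. *Isl1*, a LIM homeodomain factor of the same cells, had 30.4, 36.9 and 36.9 in Ctrl, against 33.1, 33.8 and 30.9 in cKO. *Foxa2*, the pioneer factor that opens endoderm and *Pdx1* enhancers, had 31.4, 45.1 and 49.0 in Ctrl, against 45.5, 39.0 and 38.1 in cKO. In these 3 genes too, Ctrl replicate 1 was the lowest of the 6 samples, and only *Foxa2* had a cKO sample, replicate 1, above Ctrl replicate 2. Their log2 fold changes were -0.13 for *Pax6* (95% confidence interval -0.50 to 0.25), -0.08 for *Isl1* (-0.33 to 0.16) and -0.01 for *Foxa2* (-0.43 to 0.41), with adjusted p of 0.889, 0.884 and 0.994 by limma. The intervals of all 9 genes include both lower and higher levels in cKO islets, and a missed threshold does not show equal levels.

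The 9 genes shared their lowest Ctrl sample. Ctrl replicate 1 was the lowest of the Ctrl samples for 9 of 9 factors, a position it held for 34.5% of all genes, and the lowest of all 6 samples for 6 of 9, against 17.9% of all genes. The trait was not particular to the 9 factors. Of the 22 target genes described below, all but *G6pc2*, *Pcsk1* and *Ero1lb* also had Ctrl replicate 1 as their lowest Ctrl sample. For the 9 factors, the FPKM of Ctrl replicate 1 was between 65.8% (*Pdx1*) and 82.2% (*Isl1*) of the mean of the other two Ctrl samples. The mean over the 9 genes of log2(FPKM + 1), centred on the 6 samples, was -0.24 in Ctrl replicate 1, 0.16 and 0.25 in Ctrl replicates 2 and 3, and -0.06, -0.07 and -0.04 in the cKO samples. The cKO samples therefore lay close together, between the extremes of the Ctrl group. Ctrl replicate 1 also had the highest immune and dividing-cell markers, and the part of those cells in this order, which was noticed in the values, was not tested.

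**Figure D2:**
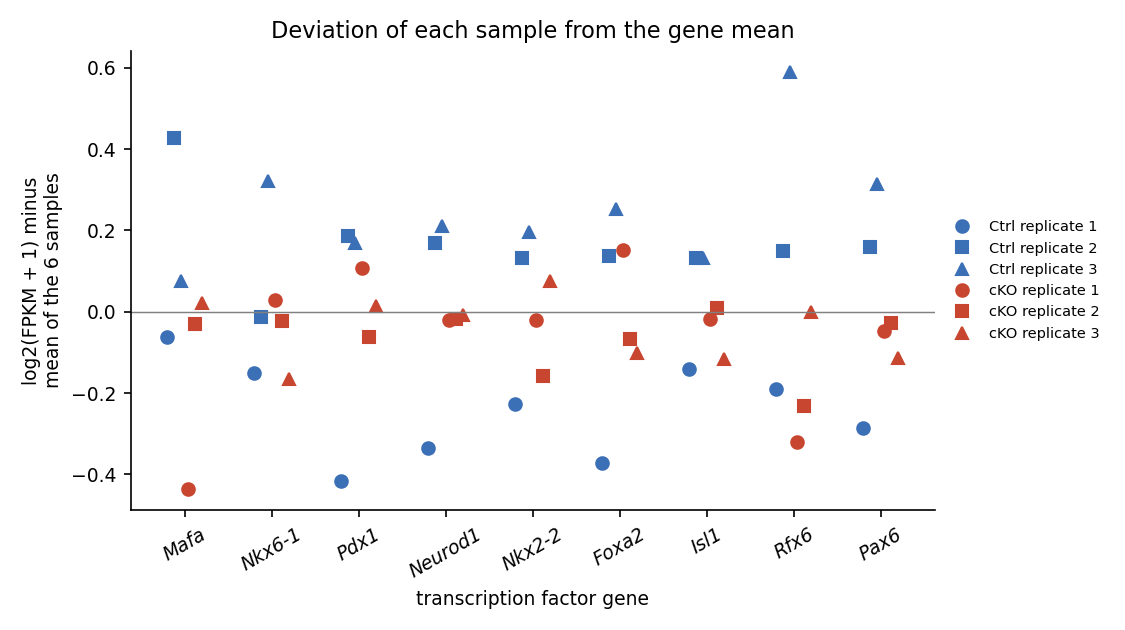
Deviation of each of the 6 samples from the gene's own mean, in log2(FPKM + 1), for the 9 transcription factor genes; blue is Ctrl, red is cKO and the marker shape is the replicate. Ctrl replicate 1 (blue circles) is below 0 for each gene and is the lowest of the 6 samples for 6 of them.

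Every cKO sample lay below both Ctrl replicates 2 and 3 for 7 of the 9 factors, the exceptions being *Nkx6-1* and *Foxa2*, against 14.7% of all genes, a count made after the values were seen. Without Ctrl replicate 1, the log2 fold change was below 0 for 9 of 9 factors, against 50.2% of all genes, with a median of -0.21. That sample was the lowest Ctrl sample for 9 of 9 factors, so leaving it out lowered each fold change by construction. It was the lowest for only 34.5% of all genes, so their shares are not a like background. Without that sample, *Rfx6* (-0.55, adjusted p = 0.356), *Pax6* (-0.30, adjusted p = 0.310) and *Neurod1* (-0.21, adjusted p = 0.373) were lower at an unadjusted p under 0.05 by limma, where 5.53% of all genes were. None was higher, where 5.9% of all genes were. *Mafa* was at -0.40 (95% confidence interval -0.93 to 0.12). The adjusted p of these 3 genes were their lowest among the 19 alternatives, and the highest were 0.938 for *Rfx6*, 1 for *Pax6* and 0.998 for *Neurod1*. Without Ctrl replicate 3, in contrast, only 3 of 9 fold changes were below 0 and the median was 0.01. Scaling the samples to the same FPKM sum left 2 of 9 below 0, and voom on reads read back from FPKM, scaled by their sum, left 4. With *Ins1* and *Ins2* left out of the sum, or with voom on the library sizes read back, 8 of 9 were below 0, as with FPKM itself. The count of factors below 0 thus rested on which Ctrl samples were used and on how the samples were scaled.

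**Figure D3:**
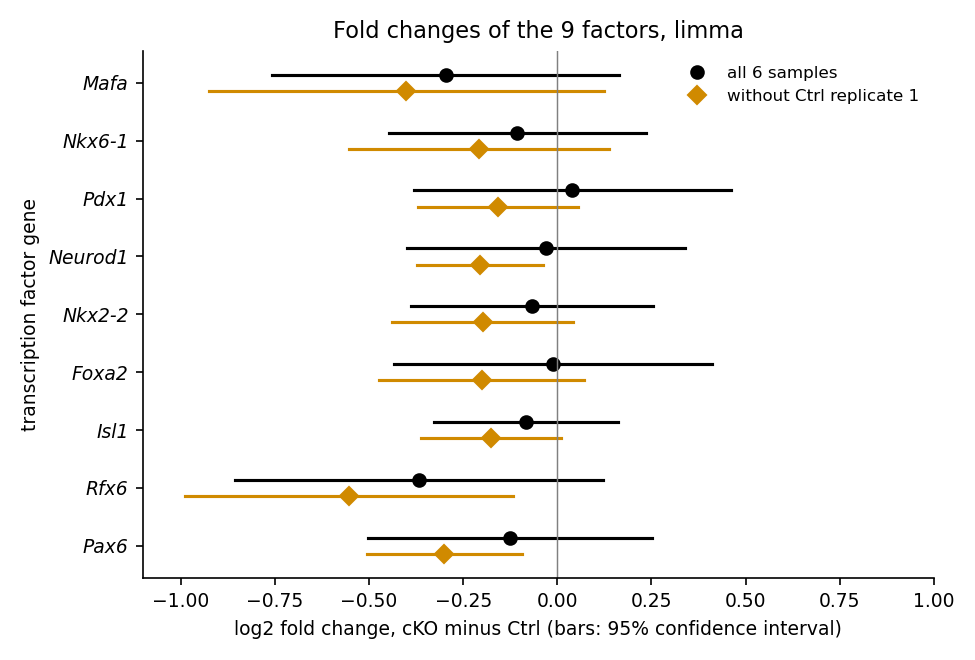
Log2 fold change, cKO minus Ctrl, of the 9 factors with the 95% confidence interval from limma, for all 6 samples (black circles) and without Ctrl replicate 1 (orange diamonds). All 9 black intervals include 0, and the orange intervals of *Neurod1*, *Rfx6* and *Pax6* lie below it.

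Genes of the same protein families were also examined, and 5 of them were at 0 in every sample. *Rfx3*, an RFX factor of ciliated and endocrine cells, was above the Ctrl level in every cKO sample, as were 7.11% of all genes. It was higher at an unadjusted p under 0.05, as were 4.33% of all genes. Its FPKM was 2.59, 1.99 and 2.83 in Ctrl, against 3.40, 3.81 and 3.27 in cKO (log2 fold change 0.38, adjusted p = 0.590 by limma). Further relatives with a mean FPKM of at least 1 included *Foxa3*, *Rfx5*, *Rfx1*, *Nkx2-3*, *Rfx2* and *Rfx7*, with log2 fold changes from -0.13 (*Rfx1*) to 0.21 (*Nkx2-3*).

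Ratios within a sample do not depend on how its library is scaled. The ratio of *Rfx6* to *Pdx1* FPKM was 0.380, 0.318 and 0.441 in Ctrl, against 0.239, 0.288 and 0.322 in cKO, and the groups overlapped through Ctrl replicate 2 and cKO replicate 3. The ratio of *Mafa* to *Pdx1* was 6.32, 5.82 and 4.61 in Ctrl, against 3.37, 5.03 and 4.95 in cKO, where only cKO replicate 1 lay below every Ctrl sample. The ratio of *Mafa* to *Nkx6-1*, with means of 3.11 ± 0.741 and 2.72 ± 0.606 (SD, n = 3 each), overlapped too. Exact two-sided permutation tests gave p = 0.2, 0.3 and 0.5 for the 3 ratios, or 0.45, 0.45 and 0.5 after Benjamini-Hochberg adjustment over them, and 0.1 is the smallest p that 3 samples against 3 allow.

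Genes known or reported as targets of the 9 factors in β cells included both insulin genes, glucose sensors, incretin receptors, channels and granule genes, 22 in all. Of these, 19 had a log2 fold change below 0 (53.5% of all genes), with a median of -0.13, and none passed at an adjusted p under 0.05. Only 12 of 22 were below 0 without Ctrl replicate 3, and 11 with FPKM scaled to the same sum. At an unadjusted p under 0.05, 3 were lower (3.07% of all genes) and 1 was higher (4.33%). The lower genes were *Ucn3*, which encodes the β-cell peptide urocortin 3 (-0.58, adjusted p = 0.597), *Gipr*, the receptor of the incretin GIP (-0.58, adjusted p = 0.635), and *Nnat*, which encodes neuronatin of the endoplasmic reticulum (-0.43, adjusted p = 0.564, all by limma). *Nnat* stood at 25.5, 27.4 and 26.0 in Ctrl, against 22.1, 20.8 and 15.3 in cKO, without overlap, whereas *Ucn3* and *Gipr* overlapped through Ctrl replicate 1. The cKO samples were also below every Ctrl sample for *Ins2*, one of the insulin genes, with FPKM of 154877 to 178676 in Ctrl and 109030 to 132945 in cKO (log2 fold change -0.46, adjusted p = 0.982 by limma). The third target without overlap in this direction was *Iapp*, which encodes the co-secreted peptide amylin, at 17011 to 23853 in Ctrl and 13486 to 14450 in cKO (log2 fold change -0.54, adjusted p = 0.896 by limma). Such a gap held for 3 of the 22 targets, against 6.03% of all genes. The log2 standard errors, 2.87 for *Ins2* and 0.719 for *Iapp*, rest on a trend over all genes as well as on these samples. They were large beside the spread of *Ins2* itself, which averaged 168013 ± 12091 in Ctrl and 122054 ± 12099 in cKO (SD, n = 3 each). These 2 adjusted p therefore do not measure the spread of these genes alone. *Ucn3*, *Nnat*, *Sytl4* and *Slc30a8* of this list were picked by the study from these samples, so their direction is not independent evidence. The higher gene was *Pcsk1*, the prohormone convertase that begins proinsulin cleavage, at 128, 145 and 105 in Ctrl, against 158, 171 and 187 in cKO (log2 fold change 0.45, adjusted p = 0.546 by limma). *Pcsk1* and *G6pc2* were the 2 targets with every cKO sample above every Ctrl sample, which held for 7.11% of all genes. *G6pc2* had 1092, 1266 and 992 in Ctrl, against 1428, 1476 and 1422 in cKO (log2 fold change 0.38, adjusted p = 0.720 by limma). The count of lower target genes was 6 without Ctrl replicate 1, 1 without cKO replicate 2, and 0 without Ctrl replicate 2, without Ctrl replicate 3 or with FPKM scaled to the same sum. It was 5 without the trend, with pan-endocrine scaling or with voom, and 6 with sample weights. The count of higher target genes was 0 without cKO replicate 3, and it was 2 without the trend, with voom, with the same FPKM sum or with a mean FPKM of at least 1.

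Other transcription factors and cofactors of β cells were divided in direction. Of 26 listed, 25 were tested, with 13 log2 fold changes below 0 and 12 above. At an unadjusted p under 0.05, 1 was lower (3.07% of all genes) and 2 were higher (4.33%). Every cKO sample was above every Ctrl sample for 3 (7.11% of all genes), *Ssbp3*, *Rfx3* and *Scrt1*, and below for 0 (6.03%). *Mlxipl*, the carbohydrate-responsive factor ChREBP, was lower at an unadjusted p under 0.05 (42.3, 56.8 and 65.0 in Ctrl, against 44.9, 26.8 and 26.4 in cKO; log2 fold change -0.75, adjusted p = 0.581 by limma), and its groups overlapped through Ctrl replicate 1 and cKO replicate 1. *Ssbp3*, a cofactor of LIM homeodomain complexes such as those of ISL1, was higher at the same threshold and without overlap (12.6, 12.1 and 13.3 in Ctrl, against 17.0, 15.2 and 15.5 in cKO; log2 fold change 0.30, adjusted p = 0.488 by limma), as was *Rfx3*. *Ldb1*, which bridges ISL1 and SSBP3, had a log2 fold change of -0.24 (adjusted p = 0.720 by limma). Of 12 progenitor and dedifferentiation genes, 10 were tested, and 2 had a log2 fold change below 0, against 53.5% of all genes. *Gata6*, an endoderm factor, was the 1 gene of the 10 that passed at the unadjusted threshold, higher in cKO islets as were 4.33% of all genes (2.86, 2.41 and 2.04 in Ctrl, against 3.39, 3.55 and 3.55 in cKO; log2 fold change 0.39, adjusted p = 0.546 by limma). *Neurog3*, which starts the endocrine lineage, was at 2.22, 3.42 and 2.51 in Ctrl, against 2.28, 3.78 and 4.29 in cKO, and its groups overlapped.

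**Figure D4:**
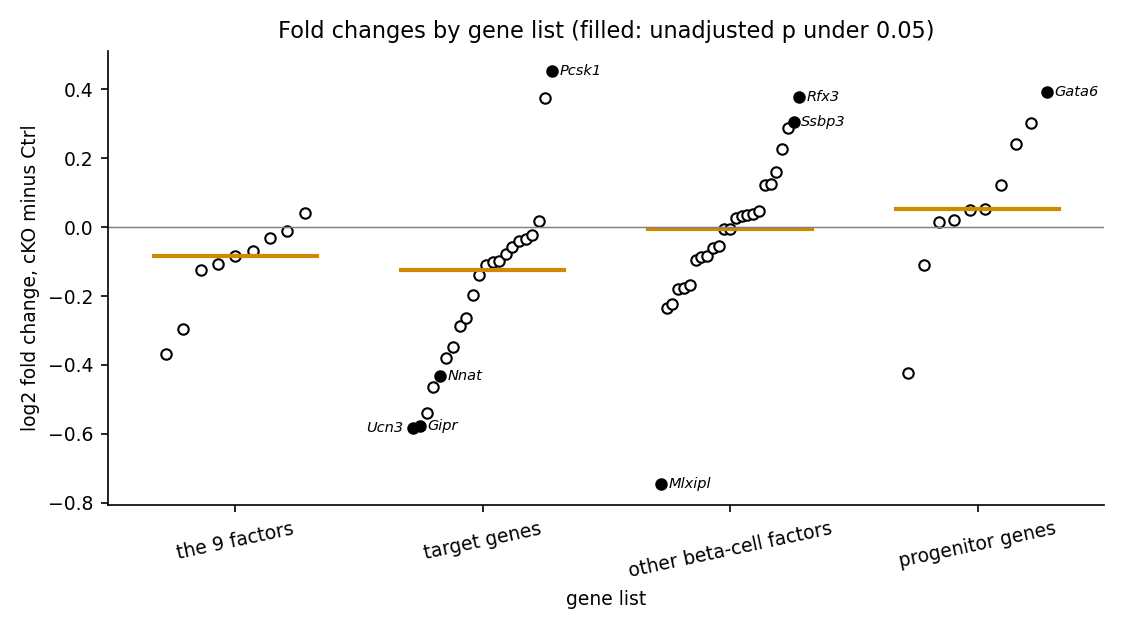
Log2 fold change, cKO minus Ctrl, of each gene tested in 4 lists: the 9 factors, their target genes (22), other β-cell factors (25) and progenitor genes (10). Orange bars are medians, and filled, named points have an unadjusted p under 0.05 by limma, which none of the 9 factors reached.

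Several transcripts overlap the 9 genes. *Plut*, an antisense RNA at *Pdx1* (chromosome 5, 147228596 to 147271521), had 13.6, 26.1 and 26.4 FPKM in Ctrl islets, against 19.1, 24.9 and 24.6 in cKO islets. *Pax6os1*, antisense to *Pax6* (chromosome 2, 105536080 to 105670330), had 5.70, 13.1 and 12.3 in Ctrl, against 7.91, 8.14 and 8.33 in cKO. In both, as in their sense partners, Ctrl replicate 1 was the lowest of the 6 samples. The antisense RNA *6430503K07Rik* inside *Nkx2-2* had 13.7, 18.7 and 21.1 in Ctrl, against 18.8, 15.3 and 16.1 in cKO. These 3 share 0 exon bases with the factor they overlap. *Cerkl*, on the strand of *Neurod1*, shares 201 exon bases with it, and at 2.82 to 3.62 FPKM it was far below *Neurod1*. The sources used here do not say whether the counting used strand, so reads of overlapping genes cannot be told apart with certainty. The log2 fold changes of the 4 transcripts were between -0.24 and 0.10, with adjusted p of 0.876 or more by limma.

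The 5 genes at a mean FPKM of at least 10 whose centred profile over the 6 samples was most like the mean profile of the 9 factors were *Lysmd2*, *Eml2*, *Sort1*, *Acly* and *Cpn1*, out of 3864 candidates. Their mean absolute difference from that profile was 0.024 to 0.033 on the log2 scale. Of the 9 factors themselves, *Pax6* was nearest to the mean profile, at 0.039, followed by *Neurod1* at 0.044, and *Mafa* was the farthest, at 0.183, followed by *Rfx6* at 0.145. *Acly*, which encodes ATP citrate lyase, for example had 241, 309 and 330.5 FPKM in Ctrl islets, against 273, 250 and 271 in cKO islets, with Ctrl replicate 1 again the lowest.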

How the data were processed

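RNA-seq of islets from 3 Ctrl and 3 cKO samples was used, grouped by the labels. Per the labels, libraries came from TRIzol RNA and a SMARTER mRNA kit on GRCm38 (mm10). The authors deposited FPKM for each gene in each sample. The aligner, counter and annotation release are not given in the sources used here. No source says whether samples are separate animals or pools of animals, so p-values measure the spread between these samples. By limma, that spread is moderated by a trend over all genes. Reads read back from FPKM (whole for 100% of values) gave the depth.

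From FPKM, log2(FPKM + 1) was compared with limma 3.58.1 in R 4.3.3 (trend, two-sided, Benjamini-Hochberg over genes averaging at least 0.1 FPKM), and the code was tested on simulated data. A fold change on this scale understates that of low genes. Gene models were from GENCODE, and figures from Python with matplotlib. Members and lists were chosen with earlier results of these data known. Named genes are the 9 factors, *Parn*, list members at an unadjusted p under 0.05 (at most 4 per list, otherwise the largest fold change), family relatives, overlapping transcripts and the 5 most alike. *Ldb1*, *Neurog3*, *Ins2*, *Iapp*, *Slc30a8*, *Sytl4*, *G6pc2*, *Ero1lb* and *Scrt1* were added after their values were seen. Some genes and lists that were tested are not reported here. LACE-seq, qRT-PCR and mass spectrometry were not analysed here.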

Additional observations from a re-analysis of the deposited data

How the results depend on the processing

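The adjusted calls of the 9 factors (0) and their higher calls (0) did not change in any of 19 alternatives, which covered the pseudocount, the filter, the trend, scaling, sample weights, voom on the reads read back, the replicate block and each sample left out; voom with the library sizes read back was chosen after seeing the data. The number of factors with a log2 fold change below 0 was 2 with FPKM scaled to the same sum, 4 with voom on the reads read back and 3 to 9 with each sample left out in turn, lowest without Ctrl replicate 3. *Mafa* and *Rfx6* were below 0 in 19 of 19 alternatives, *Pdx1* in 3. Lower factors at an unadjusted p under 0.05 numbered 0 to 3 with a sample left out.

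Same-numbered samples did not deviate together (correlations -0.17, -0.02 and -0.07). These deviations come from few samples in each group, and Ctrl replicate 1 stood apart from the others. The correlations therefore cannot decide whether the numbers pair the samples. With the replicate block, 1 factor was lower at an unadjusted p under 0.05, *Rfx6* (adjusted p = 0.805 by limma).

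Over all genes, 651 were lower and 919 higher at an unadjusted p under 0.05. These became 308 and 1786 with the same FPKM sum, and 328 and 1499 with voom on the reads read back. The lower ones were 1245 with sample weights, and 402 to 1173 with a sample left out. The same FPKM sum moved the median of all genes from -0.01 to 0.07. With *Ins1* and *Ins2* left out of that sum the median was -0.01, 8 factors were below 0, and 503 genes were lower and 809 higher. Voom with the library sizes read back gave 8, 602 and 977. For the FPKM sum, the shift was thus seen with the insulin genes in the sum and not without them. Voom was not run without the insulin genes, so their part in its shift was not tested. Genes at an adjusted p under 0.05 were 2 with voom on the reads read back (*Chgb* and *Ehhadh*) and 0 to 1 with a sample left out, *Phlda3* without Ctrl replicate 1.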
